A study of Mus musculus with 4 samples.

Results

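The neuropeptide precursor genes Pyy, Npy, Grp, Tac1, Tac4, Calca, Calcb, Penk and Pomc were described in inflamed mouse ears, with every probe whose gene name on the array is one of these 9 symbols. Calca had 2 probes and each other gene 1 on the array, so that 9 of 34797 gene names and 10 of 55681 probes were read, each probe printed as 1 spot. Whole ears were painted with 2,4-dinitrofluorobenzene (DNFB), a contact allergen, and taken after 48 h. The 2 wild-type mice were RelAfl/fl, and the 2 mutant mice were K14Cre RelAfl/fl, which the labels also call RelAE-MUT. All 4 ears therefore carried the floxed allele of RelA, a subunit of the transcription factor NF-kB, and only the mutants carried the recombinase. Effects of the recombinase itself and of the deletion therefore cannot be told apart. The K14 promoter is active in basal keratinocytes, and the nerve, immune and connective tissue cells of a mutant ear are not its intended targets. The labels used here give no age, sex or strain background, and untreated ears were not analysed here. Each ear gave 1 one-colour array.

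Neuropeptides are cut from longer precursor proteins at paired basic residues, and many are then amidated at their end, which many of them need to act on their receptors. In skin, substance P from Tac1 and the calcitonin gene-related peptides (CGRP) from Calca and Calcb are released by sensory nerve endings, where they widen vessels and act on mast cells. Keratinocytes, melanocytes and immune cells can make such peptides too, for example melanocortins from Pomc and enkephalins from Penk. The cell bodies of sensory neurons, which hold most of their mRNA, lie in ganglia outside the ear.

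The probes of Pyy and Npy are shown whole because these related genes both had higher values in the mutants and because the letters show which part of the message each one reads. The capitals mark the bases that in this family encode the last residue of the mature peptide and, behind it, the signal for amidation and cleavage. Probes are written 5′ to 3′ as the files give them, with positions in mouse build mm9. The Pyy probe lies at chr11:101968311-101968370 on the minus strand. The Npy probe lies on the plus strand of chromosome 6, and its 60 bases span 3763 bases of the genome (chr6:49773743-49777505), so that it crosses a splice junction.
Pyy: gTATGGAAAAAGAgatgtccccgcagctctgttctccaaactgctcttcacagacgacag
Npy: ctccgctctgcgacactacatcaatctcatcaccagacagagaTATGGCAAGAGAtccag
Read on the strand given, with any base allowed at its degenerate positions, this signal was found in 9 of the 55681 probes (0.0162%). It lies at the start of the Pyy probe and near the end of the Npy probe, so that Pyy is read behind the mature peptide and Npy mostly before that point. The probes of Pyy and Npy shared no run longer than 7 bases, and no pair of the 10 member probes (45 pairs) shared one longer than 8.

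The last 30 bases of the probes of Calca, Calcb and Tac4 are shown because they tell the Calca transcripts and the CGRP genes apart. The capitals mark AATAAA, the usual polyadenylation signal, which 10.1% of all probes hold. The Calca probes lie on the minus strand of chromosome 7, that of transcript variant 1 at chr7:121776948-121777007 and that of variant 2 farther along the gene at chr7:121775204-121775263. Alternative splicing gives calcitonin or CGRP from this gene, and in the textbook gene the exon of calcitonin comes before those of CGRP. The files do not name the peptide of either variant. The Calcb probe lies at chr7:121866534-121866593 and the Tac4 probe at chr11:95130516-95130575, both on the plus strand.
Calca variant 1: aggagaaagtcccacaggctaaaagagaat
Calca variant 2: atccAATAAAcatgacagcatggttctggc
Calcb: tataaatgagttaattctgtgtttgtttgc
Tac4: tgttacacaaAATAAAaagacagtttggaa
The Calcb probe shared no run longer than 5 bases with either Calca probe. The place of these probes within an exon is not given here, since no annotation of build mm9 was used.

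Levels are log2 intensities relative to the 75th percentile of the same array, so that 0 is the level of that percentile, and they are not compared between probes. Paired values are given for mouse 1 and then mouse 2 of a group. The 75th percentile lay between 589 and 664 in intensity, between 61.21% and 64.27% of the spots of an array were well above background and 0 were saturated. The array of mutant mouse 2 had a corner with dark spots, and 0 of the 10 member spots lay in it. Rela itself gave 4.48 and 4.60 in wild-type ears, and 4.59 and 4.72 in mutant ears. This probe checks nothing, since the deleted part is not given and its spot lies in that corner. All 8 keratinocyte markers examined were well above background on the 4 arrays, as were 8 of 8 fibroblast markers. Of 25 markers of sensory and sympathetic neurons, 7 were not well above background on any array, among them the sodium channel genes Scn9a and Scn10a, the neurofilament genes Nefl and Nefm and peripherin (Prph).

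Of the 10 member probes, 7 were well above background on all 4 arrays, namely those of Pyy, Npy, Grp, Tac4, Calcb, Penk and Pomc. The variant 2 probe of Calca was so on both mutant arrays only, the variant 1 probe of Calca on that of mutant mouse 1 only, and Tac1 on those of wild-type mouse 1 and mutant mouse 1. The test took probes that both mice of 1 group or of the other had well above background, and 8 of the 10 met this. The genes had been chosen on their measured differences between these mutant and wild-type ears, so that the differences are given as a description with no test. Errors are limma's moderated standard errors (SE, n = 2 mice per group). Of the 8 probes 0 passed limma's threshold (an adjusted p under 0.05 over 33664 tested probes), which 0.0208% of all tested probes passed, and 6 had an unadjusted p under 0.05, as 6.56% of all did. The groups did not overlap at 6 of the 8 probes, 3 higher and 3 lower in the mutants, against 36.3% of all tested probes (18.7% higher and 17.6% lower). The variant 2 probe of Calca, 1 of the 3 higher, was tested only because both mutant arrays were well above background. Of the 7 probes well above background on all 4 arrays, 5 did not overlap. At least 2-fold apart without overlap were 4 of the 8, against 1.2% of all, with 2 higher (0.689% of all) and 2 lower (0.514% of all). The median difference of the 8 probes was -0.27 on the log2 scale, against 0.01 over all tested probes. Nothing is read from these counts.

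**Figure D1:**
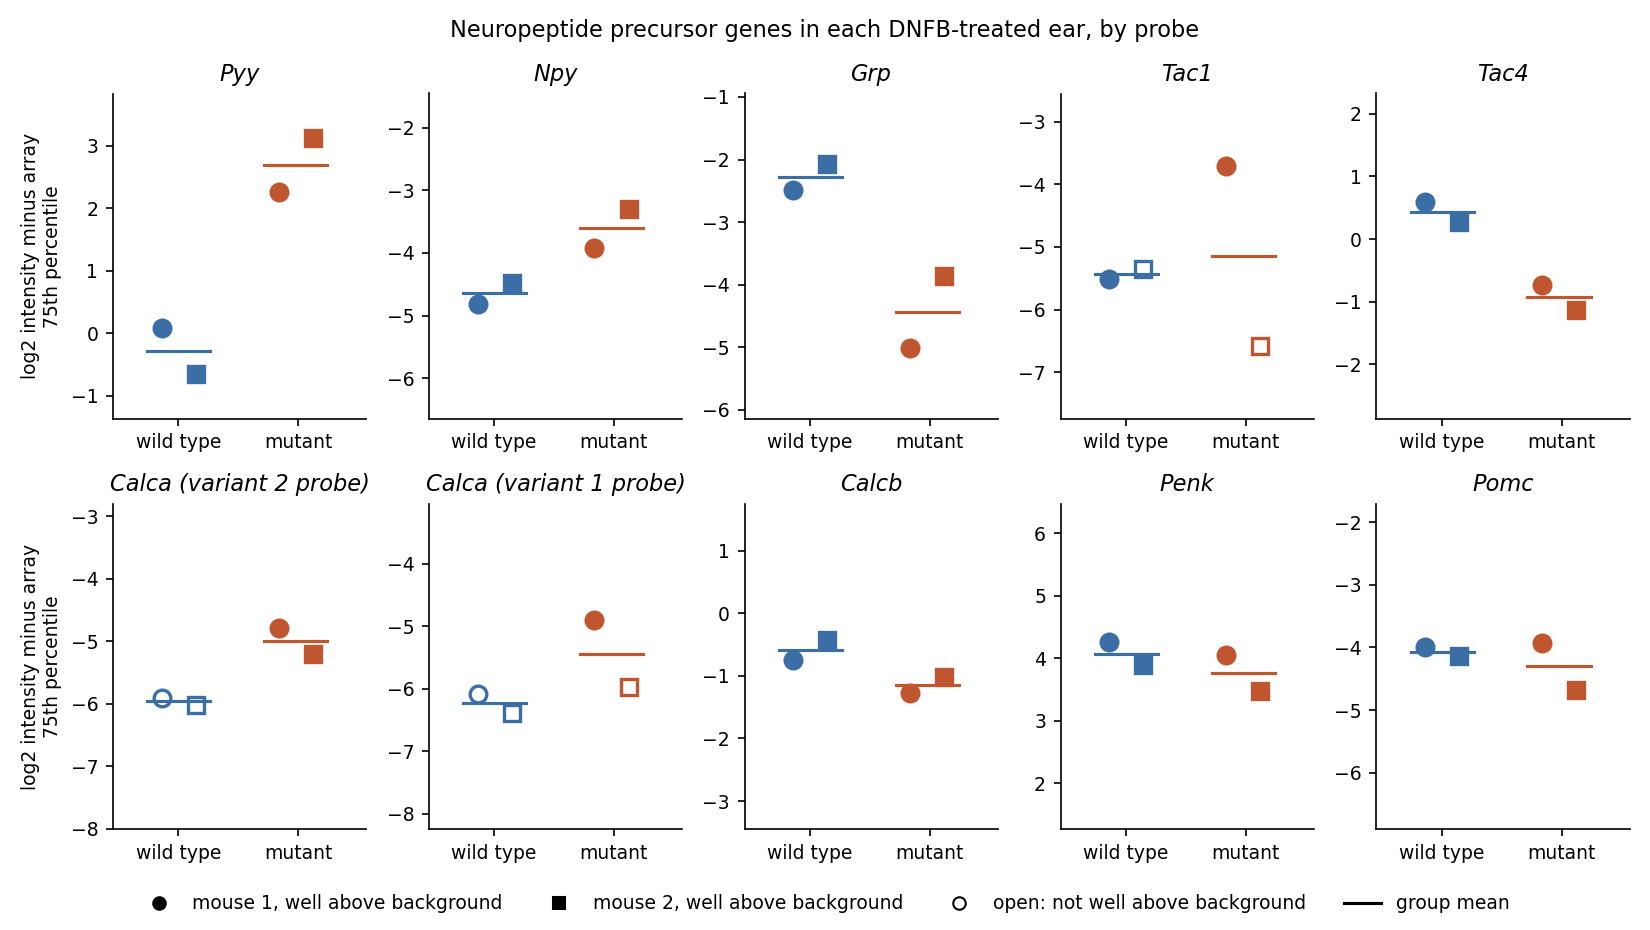
Each panel shows 1 probe, with the level in each mouse (log2 intensity minus the array's 75th percentile), the group mean as a line, and open symbols where the spot was not well above background; every panel spans the same number of log2 units. Both mutant mice lie above both wild-type mice for Pyy, Npy and both Calca probes, and below them for Grp, Tac4 and Calcb. At both Calca probes the wild-type symbols are open. At the variant 1 probe that of mutant mouse 2 is open too, and it lies only 0.10 above the nearest wild type. The groups overlap for Tac1, Penk and Pomc.

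Pyy, which encodes the gut hormone peptide YY, showed the largest difference. Wild-type ears gave 0.08 and -0.65, mutant ears 2.27 and 3.12. Both mutants were high, and the lowest mutant lay 2.19 above the highest wild type, more than either pair of mice differed within its group. In intensity, with the error that the scanner software attached to each spot, the wild-type ears gave 701 ± 70.1 and 396 ± 39.8 and the mutant ears 2979 ± 298 and 5115 ± 512. The log2 difference was 2.98 ± 0.39, a 7.89-fold higher level in the mutants, and 0.264% of all tested probes differed by as much in either direction. Leaving out 1 mouse at a time gave between 2.55 and 3.41.

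Npy encodes neuropeptide Y, a transmitter of sympathetic nerves and a close relative of peptide YY. Levels of -4.81 and -4.48 in wild-type ears compared with -3.92 and -3.29 in mutant ears. The signal was dim in all 4 ears, with intensities of 23.6 ± 3.75 and 27.9 ± 4.33 against 40.8 ± 5.23 and 60.1 ± 6.59, and the mutants were higher without overlap. The log2 difference of 1.04 ± 0.26 (2.05-fold) became 0.46 with normexp background correction, which adds an offset of 50 to each signal and so shrinks differences between dim spots.

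Grp encodes gastrin-releasing peptide, which carries itch signals in the spinal cord. Wild-type ears gave -2.49 and -2.07, mutant ears -5.02 and -3.86, so that both mutants were low. Intensities were 118 ± 12.3 and 148 ± 15.2 against 19.2 ± 4.02 and 40.5 ± 5.02. The log2 difference was -2.16 ± 0.42, a 4.46-fold lower level, and the mutant mice differed from each other more than the wild-type mice did. Without mutant mouse 1 it was -1.58 and without mutant mouse 2 -2.73. Normexp correction gave -0.95, less than 2-fold.

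The tachykinin genes did not behave alike. Tac4 encodes hemokinin, a tachykinin of blood-forming and immune cells that acts on the receptor of substance P. Wild-type ears gave 0.58 and 0.28 and mutant ears -0.73 and -1.13, with both mutants low. The log2 difference was -1.36 ± 0.20, a 2.57-fold lower level, with values from -1.56 to -1.16 when 1 mouse was left out and -1.18 with normexp correction. Tac1, the gene of substance P, gave -5.51 and -5.36 in wild-type ears but -3.71 and -6.59 in mutant ears. Only mutant mouse 1, with an intensity of 47.5 ± 5.79 against 14.6 ± 3.24, 15.2 ± 3.80 and 6.12 ± 2.86 in the others, stood out, and the groups overlapped. The difference of 0.29 had no SE, since the probe was not in the fit, and its sign turned without mutant mouse 1 (-1.16 against 1.73 without mutant mouse 2).

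Of the CGRP genes, Calcb had lower and Calca higher values in the mutants. Calcb, the gene of the beta peptide, gave -0.75 and -0.43 in wild-type ears against -1.27 and -1.02 in mutant ears. The log2 difference was -0.55 ± 0.17, a 1.47-fold lower level without overlap, and between -0.72 and -0.39 with 1 mouse left out. At the variant 2 probe of Calca the wild-type ears gave -5.91 and -6.02, neither well above background, and the mutant ears -4.79 and -5.21. This probe met the test's rule through the mutant arrays only. The floor was the dimmest signal well above background on each wild-type array, or the probe's own value where that was brighter. Against this floor, and with the main background correction only, the level in the mutants was at least 1.37-fold higher. The measured log2 difference was 0.96 ± 0.18. With normexp correction and its added offset it was 0.29, which is less than that bound. At the variant 1 probe wild-type ears gave -6.08 and -6.39, mutant ears -4.90 and -5.97. Only mutant mouse 1 was well above background there, so that no fold is given.

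The opioid and melanocortin precursors overlapped between the groups. Penk, the precursor of the enkephalins, gave 4.26 and 3.89 in wild-type ears, 4.05 and 3.48 in mutant ears, with a log2 difference of -0.31 ± 0.25. Its intensities ranged from 6584 ± 658 in mutant mouse 2 to 12688 ± 1269 in wild-type mouse 1. Pomc, the precursor of melanocortins, corticotropin and beta-endorphin, gave -3.99 and -4.14 in wild-type ears, -3.93 and -4.67 in mutant ears, with a log2 difference of -0.24 ± 0.27. Only mutant mouse 2 was low for Pomc, and without it the difference was 0.13. For Penk it was -0.03 without mutant mouse 2 and -0.59 without mutant mouse 1.

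**Figure D2:**
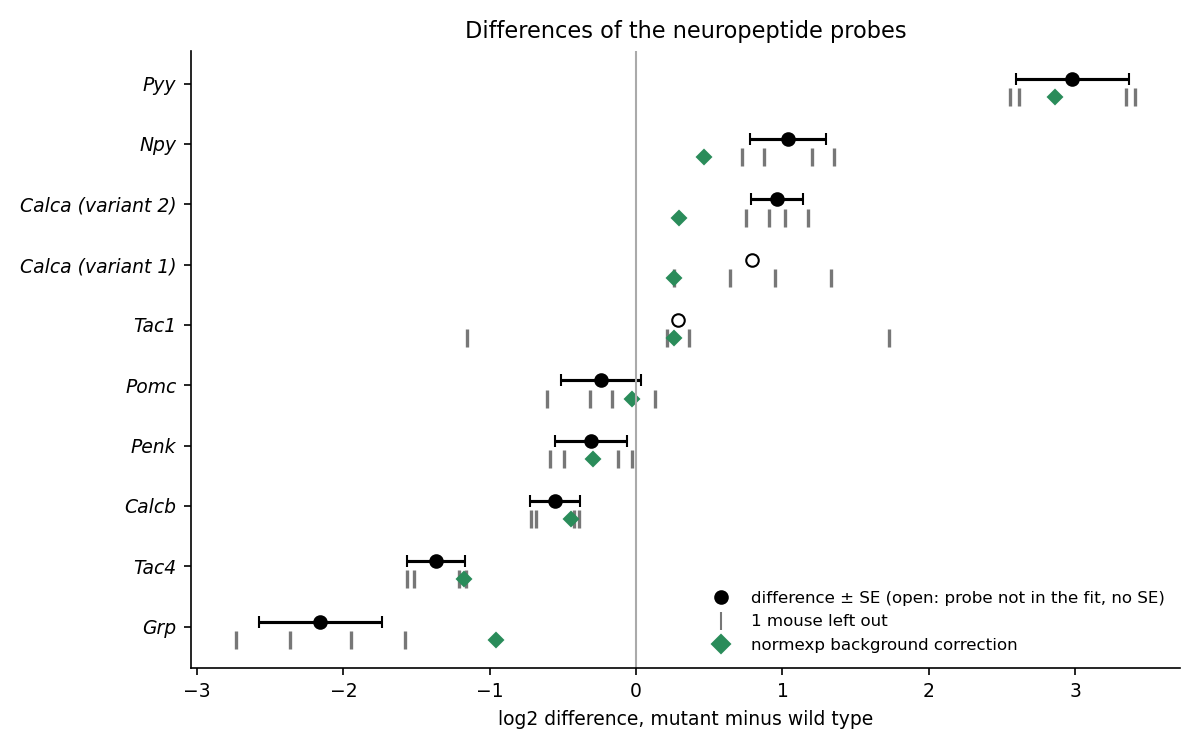
The log2 difference of each probe, mutant minus wild type, is drawn with limma's SE (open circles: probes outside the fit, with no SE), above the values with 1 mouse left out (bars) and with normexp background correction (diamonds). Pyy stayed between 2.55 and 3.41 and Tac4 between -1.56 and -1.16, while Npy, Grp and the variant 2 probe of Calca shrank to 0.46, -0.95 and 0.29 with normexp correction.

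**Figure D3:**
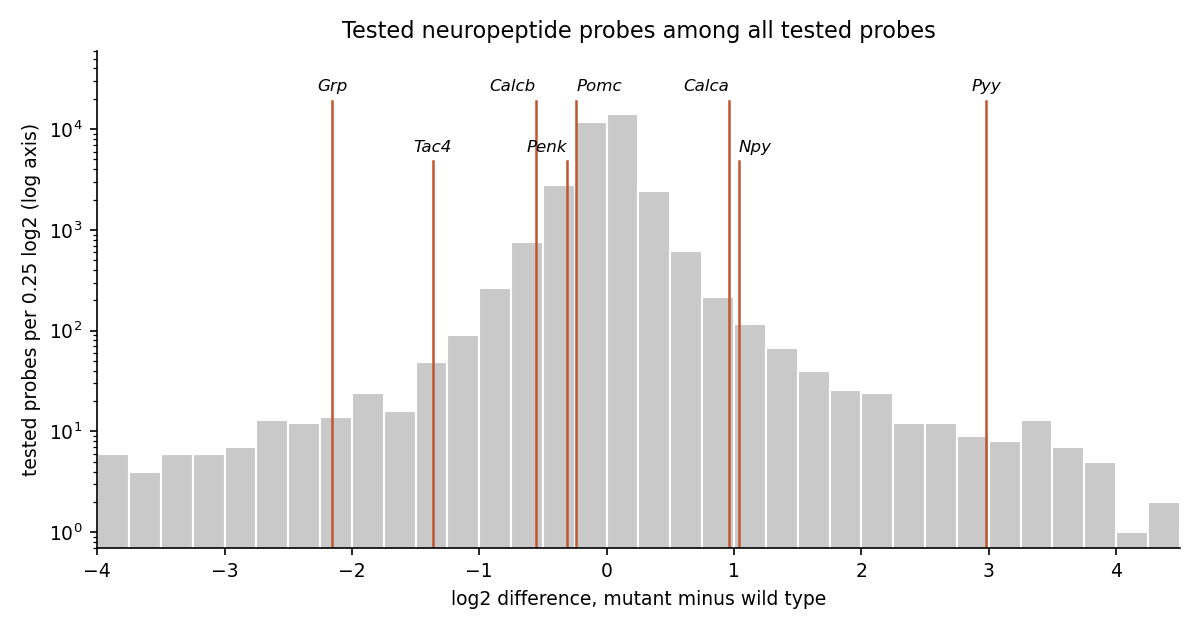
The bars count all 33664 tested probes by log2 difference (log axis), and the lines mark the 8 tested neuropeptide probes; 26 probes below and 2 above the axis range are not drawn. Pyy, Grp and Tac4 lie in the thin tails, and Penk and Pomc near the centre.

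Promoter windows from 250 bases before to 50 after the gene's start were at hand in RefSeq's build GRCm38.p6 for 6 of the 9 genes (not Grp, Calcb or Penk), and were searched on both strands. NF-kB binds the kappaB consensus, and 1 of the 6 genes, Pomc, held a match to it, where 8.46% of all 32851 windows did. The full cyclic AMP response element, TGACGTCA, was in 0 of the 6 and in 1.79% of all windows. The shorter TGACG, which the full element contains, was in 2 of the 6, Tac1 and Calca, and in 20.8% of all. The match in the Pomc window is shown in capitals within 30 bases of the plus strand at chr12:3954816-3954845, from 129 to 100 bases before the start.
Pomc promoter: agccaggaccGGGAAGCCCCcctcccgagg
A match describes these letters only, and the levels of Pomc overlapped between the groups.

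The receptors of these peptides, 26 genes all on the array, were examined next, each at its brightest tested probe. In the same fit 14 were tested, 0 passed the threshold (0.0168% of 23753 genes did) and 2 had an unadjusted p under 0.05, as 6.13% of all genes tested did. Differences ran from -0.52 to 2.05, with a median of -0.07 against 0.01 over all genes tested. Not well above background on any array were 11, which included Npy2r, Npy4r, Npy5r and Npy6r, all receptors of peptide YY or neuropeptide Y, and the opioid receptors Oprd1 and Oprk1. Npy1r, another receptor of this family, had -0.08 ± 0.34. Grpr, the receptor of gastrin-releasing peptide, had 0.14 ± 0.24. The tachykinin receptors Tacr1 and Tacr2 had -0.13 ± 0.25 and 0.05 ± 0.15, and Mrgprb2, a mast cell receptor for substance P, -0.08 ± 0.26. None of these passed the test, and the groups overlapped for each.

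The CGRP receptor joins Calcrl with Ramp1, and Calcrl joins Ramp2 or Ramp3 to bind adrenomedullin. Calcrl was well above background in wild-type mouse 1 only. Ramp1 had -0.11 ± 0.19, with -0.08 and -0.19 at its other probes, Ramp2 -0.05 ± 0.21 and Ramp3 -0.28 ± 0.13, with -0.32 at its other probe. The opioid receptor gene Oprm1 had 0.15 ± 0.12 at its brightest probe and -0.39 at another, so that its probes disagree, and Oprl1, the nociceptin receptor gene, had -0.01 ± 0.16.

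Among the melanocortin receptors Mc1r, which switches melanocytes to dark pigment, gave -4.16 and -3.15 in wild-type ears, -1.91 and -1.31 in mutant ears. Both mutants were high, and the difference of 2.05 ± 0.40 did not pass the threshold (limma adjusted p = 0.551). Of 7 melanocyte markers, 6 were higher in both mutants than in either wild type, by 0.62 to 1.35, as 18.9% of all genes tested were by any amount. Their summed level, in units of the array's 75th percentile, was 10.4 and 9.65 against 17.2 and 20.4 in the mutants (limma called 0 of the 7, and 6 had an unadjusted p under 0.05, which 6.13% of the tested genes had), and its part in the difference of Mc1r was not tested. In whole ears more cells of a type and more RNA per cell cannot be told apart. Mc3r gave -1.88 and -2.43 in wild-type ears, -0.48 and -1.77 in mutant ears. Its difference of 1.02 ± 0.48 (limma adjusted p = 0.81) thus rested mostly on mutant mouse 1. Mc2r, the receptor of corticotropin, had -0.52 ± 0.17 (0.724) and Mc5r, a receptor of sebaceous glands, -0.18 ± 0.15 (0.881).

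**Figure D4:**
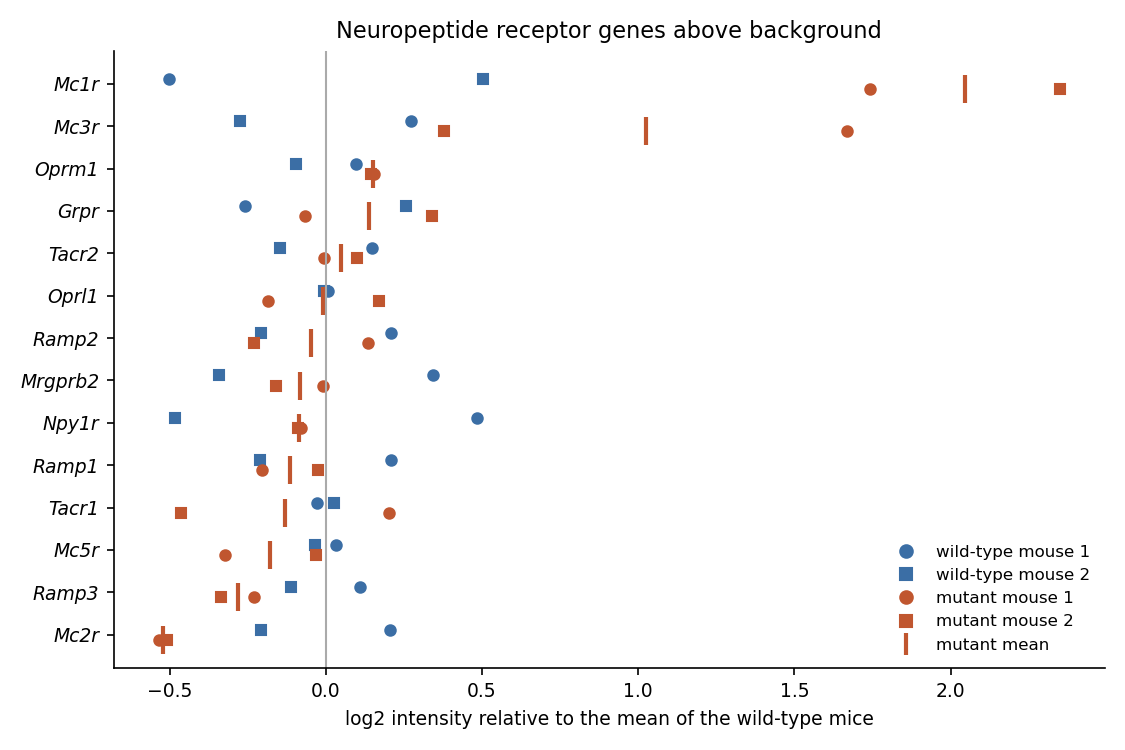
Each row is 1 tested receptor gene, and each symbol 1 mouse, as log2 intensity relative to the mean of the wild-type mice; short bars mark the mutant mean. Mc1r is the row with the largest distance between the groups (2.05), and the groups overlap for most rows.

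Genes that cut, amidate and store the peptides (17 genes) had 14 tested members, of which limma called 0 and 1 had an unadjusted p under 0.05. Among all genes tested, limma called 0.0168%, and 6.13% had an unadjusted p under 0.05. Chga, chromogranin A of secretory granules, gave -1.58 and -1.70 in wild-type ears, -0.99 and -0.51 in mutant ears. The difference was 0.89 ± 0.20 (adjusted p = 0.582) with no overlap. Pcsk1n, an inhibitor of a prohormone convertase, had -0.25 ± 0.13, Scg3, a granule protein, 0.16 ± 0.12, and the convertase gene Pcsk6 -0.11 ± 0.12. The convertase gene Pcsk1, Chgb and Scg2 were not well above background on any array. Of the 19 peptidases that degrade such peptides, all were tested, limma called 0 and 0 had an unadjusted p under 0.05. The shares of all genes tested are those given above. The lowest difference, -1.39 with overlap, was that of the mast cell tryptase gene Tpsab1, named after its values were seen, which gave -1.52 in wild-type mouse 1 and between -4.44 and -4.21 in the other 3 ears. Prep had 0.29 ± 0.14, and Npepps 0.22 ± 0.13 at its brightest probe but 0.06 at the other. Mme, the neprilysin gene, had 0.39 ± 0.23 at its brightest probe but -0.16 at the other.

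Of 44 other neuropeptide precursor genes 23 were tested, limma called 0, and 5 had an unadjusted p under 0.05 (6.13% of all genes tested), with a median difference of -0.05. Not well above background on any array were 17, among them Vip, Sst and Ppy, the pancreatic polypeptide of the same family as Pyy. The secretin gene Sct gave -3.66 and -3.73 in wild-type ears, -3.22 and -1.13 in mutant ears. Its difference of 1.53 ± 0.70 (adjusted p = 0.805) thus rested mostly on mutant mouse 2, and without mutant mouse 1 limma called it. The natriuretic peptide genes Nppc and Nppb had 1.01 ± 0.33 and 0.98 ± 0.31 (adjusted p = 0.715 each, Nppc well above background in 1 of 2 wild-type ears), and Cck, the cholecystokinin gene, -0.82 ± 0.21 (0.607), each with no overlap between the groups.

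Markers of cells that can make or store these peptides are given as summed levels in units of the array's 75th percentile. Beside Pyy, 8 endocrine cell markers summed to 0.401 and 0.429 in wild-type ears, 0.471 and 0.437 in mutant ears. These dim sums were higher in both mutants, but that of mutant mouse 2 lay close to that of wild-type mouse 2. Neurod1 and Pax6 were not well above background on any array. Merkel cell markers gave 0.881 and 1.03 against 1.23 and 0.896, with Atoh1 and Sox2 not well above background. Beside Tac4, the 10 macrophage markers gave 106 and 93.6 against 90.1 and 81.6, lower in both mutants, and 5 of 10 lay lower without overlap, as did 17.4% of all genes tested. B cell markers gave 1.38 and 1.34 against 1.22 and 1.12, also lower in both mutants, with Ms4a1, Pax5 and Blk not well above background. Beside the nerve peptides, neuronal markers gave 16.3 and 15.4 against 16.6 and 15.9 and Schwann cell markers 35.2 and 34.6 against 37.9 and 36.0, the latter list higher in both mutants. Each of these 6 lists had 0 genes past limma's threshold, and their part in the differences of the peptides was not tested. An unadjusted p under 0.05 was seen for 3 neuronal, 3 macrophage and 1 B cell marker (6.13% of all genes tested), and for 0 Schwann, Merkel and endocrine cell markers.

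**Figure D5:**
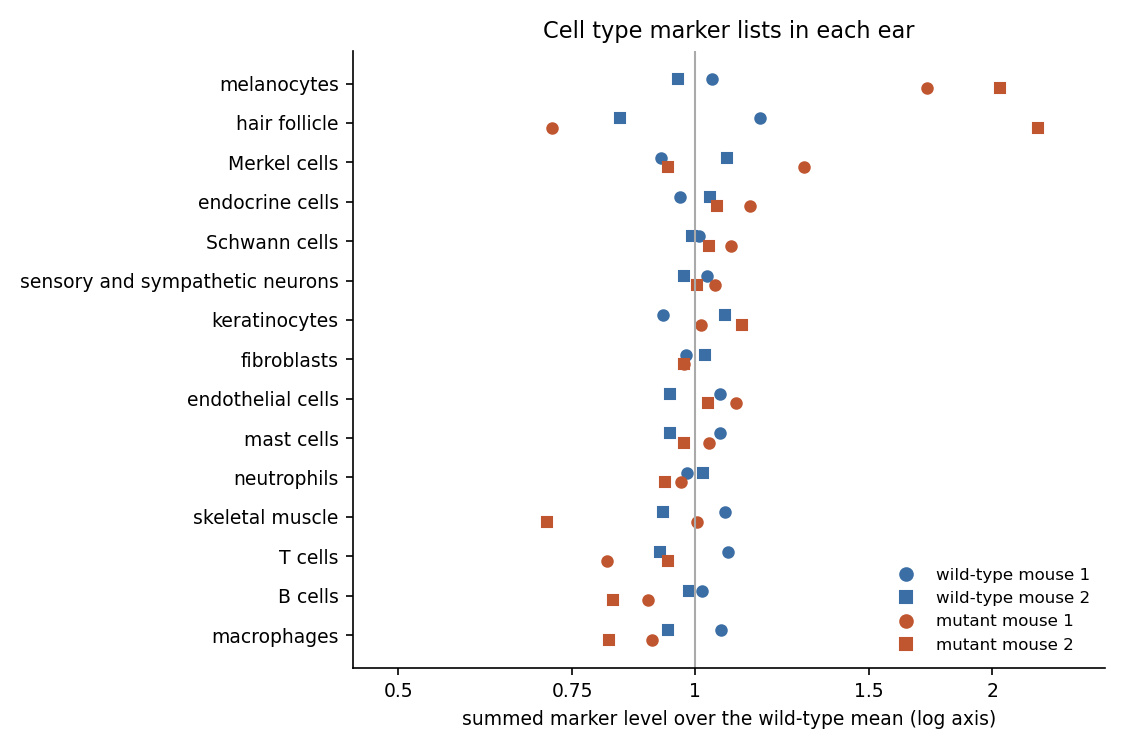
Each row is 1 list of cell type markers, and each symbol the summed level of its genes in 1 mouse over the mean of the wild-type mice (log axis). Both mutants lie above both wild types for melanocytes, Schwann cells and endocrine cells and below them for macrophages, B cells, neutrophils and fibroblasts. The neutrophil sum is mostly that of Csf3r, at 6.93 and 6.98 against 6.91 and 6.85 on the log2 scale, named after its values were seen. Of the 8 tested neutrophil markers, 3 had a higher and 5 a lower mean in the mutants. The gap is small for Schwann cells, endocrine cells, neutrophils and fibroblasts. It is smallest for fibroblasts (0.975 in both mutants against 0.978 in wild-type mouse 1), where 0 of 8 genes lay apart without overlap. Mutant mouse 2 stands apart for hair follicle genes at 2.23.

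The genes whose levels over the 4 mice were most like those of the 3 members with the largest differences were sought among 15369 genes with a full symbol. Likeness was the root-mean-square distance of the log2 levels after each gene was centred on its own mean, which is a description over 4 samples only. Nearest to Pyy were Col6a5 (0.361), a collagen chain gene, Fam183b (0.434) and Nkx2-9 (0.473), of which the last pair were not well above background in either wild-type mouse. Nearest to Grp were Scgb1b24 (0.255), Gabra4 (0.517) and Myl10 (0.521), of which Scgb1b24 was well above background in 1 mutant and the other pair in 0. Nearest to Tac4 were Sult2a6 (0.0371), Sox12 (0.0908) and Mmp13 (0.103), a collagenase, and of these only Mmp13 was well above background in both mutants.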

How the data were processed

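RNA from the ears (100 ng per sample) was labelled with Cy3 and hybridised to Agilent arrays of design 028005. The authors' intensities were made with Agilent Feature Extraction 10.7.3.1, per the file headers, where a fitted background was subtracted, a multiplicative trend corrected and surrogates put in for dim values. Probe positions are on mm9. The authors' series table holds, as deposited, the ratio of each spot's processed intensity to the array median, found from the values. Flags of 0 or 1 per spot are other deposited values.

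Here the 3671 control spots and outlier spots were left out, intensities were put on the log2 scale, the array's 75th percentile was subtracted and spots of a probe were averaged. All 33664 tested probes (60.55% of 55596) entered lmFit and eBayes (limma 3.58.1, R 4.3.3), with 2 residual and 2.55 prior degrees of freedom, two-sided, with Benjamini-Hochberg adjustment at 0.05. The script was tested on simulated data. Exact permutation of 2 against 2 cannot reach the threshold. The labels do not say what the shared replicate numbers mean, so p-values measure only the spread between these samples. The number of arrays limits precision. Figures used matplotlib 3.10.9.

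The members and lists were chosen with earlier results of these data known. Named were all member probes, all tested receptors, up to 4 genes of each other related list (those without overlap and with the largest difference) and the 3 genes most like each of 3 members; 1 gene of these is not reported here. Current symbols came from RefSeq accessions, which matched for 27235 probes. The other cell type lists appear in the plot of marker lists.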

Additional observations from a re-analysis of the deposited data

How the results depend on the processing

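Of the 16 alternatives run, those that kept all 4 mice called no member probe. The signs of Pyy, Npy, Grp, Tac4, Calca, Calcb and Penk were kept in all 16. The filters, 1 probe per gene, eBayes with trend and robust, the blocks and leaving out the dark corner could not change a member's difference. Only the scalings, normexp correction and leaving out 1 mouse could turn a sign. The 4 members at least 2-fold apart without overlap became 2 with normexp correction, and 4 to 6 with 1 mouse left out. Of all probes 7 were called, 1 with no filter on dim probes, 2 with probes above background on all 4 arrays, 4 with 1 probe per gene, 35 with eBayes with trend and robust, and 0 to 177 with 1 mouse left out (0 without either wild-type mouse, 177 without mutant mouse 1). With the replicate block 1 probe was called, and with the crossed replicate block, chosen after seeing the data because the deviations of same-numbered mice correlated at -0.159, 1 was called. Each block held 1 mouse of each group, so that neither could move a member's difference, and only the SE changed. Of the other neuropeptide precursors 0 to 1 was called with 1 mouse left out (Sct without mutant mouse 1). The lists of receptors, processing genes and peptidases stayed at 0 calls in each alternative, and cell type markers were not counted under them. The quantile, median and above-background scalings moved the median of all probes to between -0.00252 and 0.0258. Dim signal limits Npy, Grp, Tac1, Calca and Pomc. All arrays lay on 1 slide, so that no slide block was needed.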
